A study of Homo sapiens with 6 samples.

Results

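The insulin and insulin-like growth factor (IGF) axis was followed in CWR-R1 cells labelled Control and SOX2-KO, through 10 listed genes of its receptors, receptor substrates and binding proteins. Rows for the listed symbols were taken from the deposited table in CPM, read counts scaled to a total of 1000000 per library, whose Ensembl identifiers were matched to GENCODE 29, and 9 of the 10 were held among 16949 genes. These were the receptor genes IGF1R, INSR and IGF2R, the substrate genes IRS1 and IRS2, the binding protein genes IGFBP2, IGFBP3 and IGFBP5, and IGFBPL1. IGFBP4 was not analysed here. CWR-R1 is an established castration-resistant human prostate cancer line, and RNA-seq was made from 3 Control libraries, labelled untreated and SOX2 positive, and 3 SOX2-KO libraries, labelled SOX2 negative, with no other agent or allele named for either group. The sources used here do not give the method of the knockout, its clonality or the origin of the replicates. The p-values below therefore refer to variation among these 6 libraries, part or all of which may be technical.

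In this axis, IGF1, IGF2 and insulin bind the receptor tyrosine kinases encoded by IGF1R and INSR, which phosphorylate IRS1 and IRS2 and so recruit PI3-kinase upstream of AKT and mTOR. IGF2R, also the cation-independent mannose 6-phosphate receptor, has no kinase: it carries lysosomal enzymes to lysosomes and removes IGF2 from the cell surface. The secreted IGF binding proteins hold IGFs outside cells, where proteases can release them, and in prostate cancer the axis is known as a growth and survival pathway.

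SOX2 itself checks the labels, with 55.7, 54.3 and 55.5 CPM in Control replicates 1, 2 and 3 and 4.70, 4.56 and 3.83 CPM in SOX2-KO replicates 1, 2 and 3. The transcript was thus lower but not lost, with 7.91% of the Control level left. From the spacing of low values, 20717790 to 25739759 reads were estimated per library, so that 3 reads, taken as the floor, equal 0.117 to 0.145 CPM (counting error only), well below what remained of SOX2. All 10 prostate epithelial markers examined had values, summing to between 3822 and 3891 CPM in Control and between 4242 and 4475 CPM in SOX2-KO. Of these markers 6 were called higher and 3 lower, beside 25.0% and 32.9% of all genes tested. Among them KLK3, the prostate-specific antigen gene, was low, with 2.69 to 2.94 CPM in Control and 8.04 to 10.3 CPM in SOX2-KO. Of the fibroblast markers 3 of 10 had values (10.3 to 11.2 CPM summed in Control, 7.71 to 7.84 in SOX2-KO) and of the neural and glial markers 5 of 8 (35.3 to 36.9 and 28.1 to 30.5 CPM). Of the endothelial and immune markers 2 of 11 had values (3.48 to 4.26 and 20.3 to 22.0 CPM), and VWF, the von Willebrand factor gene, made up nearly all of the higher sum. Their part in the results below was not tested. SOX2-KO replicate 3 stood apart in transcripts of the mitochondrial chromosome, at 3.44% of CPM against 1.87% and 1.68% in SOX2-KO replicates 1 and 2, and 3.23% to 3.45% in Control.

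Of the 9 genes, 4 rose (IGF2R, IRS1, IGFBP2 and IGFBP3), 4 fell (IGF1R, IRS2, IGFBP5 and IGFBPL1) and INSR did not pass the test. A gene is called higher or lower where limma on log2(CPM + 1), fitted across 15927 genes, gave a Benjamini-Hochberg adjusted p under 0.05; every adjusted p below is of this kind, values after ± are SD with n = 3 libraries, and log2 differences understate the change of low genes. Over all genes tested, 57.8% were called, 25.0% higher and 32.9% lower. The 8 called members also differed by at least 1.5-fold in mean CPM, as 21.9% of all genes did while also being called. All 9 passed the minimum of 1 CPM, and because they were listed with results of these data known, their share is a description. Fewer cells of a type and less RNA per cell cannot be told apart in such bulk libraries.

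**Figure D1:**
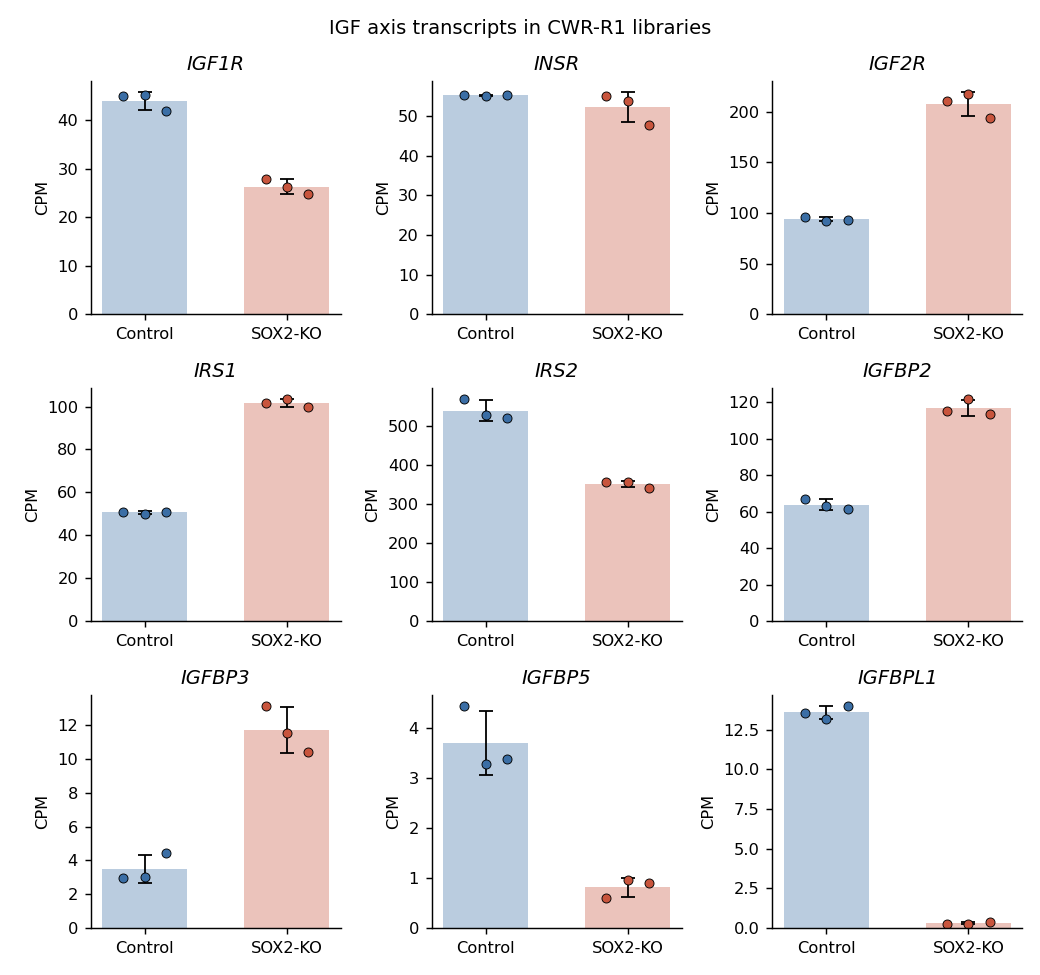
CPM (y axes, from 0, a scale per gene) of the 9 genes in the Control and SOX2-KO libraries; points are libraries, bars means and error bars SD (n = 3). IGF2R, IRS1, IGFBP2 and IGFBP3 are higher in every SOX2-KO library, IGF1R, IRS2, IGFBP5 and IGFBPL1 lower, and the INSR groups lie next to each other, at 55.1 to 55.4 and 47.9 to 55.0 CPM.

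Among the receptors, the IGF1R transcript fell while that of INSR did not change detectably. IGF1R, the type 1 IGF receptor and the main mitogenic receptor of the axis, stood at 44.9, 45.2 and 41.9 CPM in Control replicates 1 to 3 and at 27.9, 26.3 and 24.9 CPM in SOX2-KO replicates 1 to 3. Each SOX2-KO value lay below each Control value, by a wide margin against the spread within groups. The mean went from 44.0 ± 1.79 to 26.3 ± 1.5 CPM, which left 59.8% of the Control level (log2 difference −0.72 ± 0.06, standard error; adjusted p = 1.40e-05). INSR, the insulin receptor, which can also pair with IGF1R in hybrid receptors, had 55.4, 55.1 and 55.2 CPM in Control and 55.0, 53.8 and 47.9 CPM in SOX2-KO. The groups did not overlap, as in 64.5% of all genes tested, but only SOX2-KO replicate 3, the library with the higher mitochondrial share, lay far from Control. The means were 55.2 ± 0.155 and 52.2 ± 3.82 CPM (log2 difference −0.08, 95% interval −0.21 to 0.05; adjusted p = 0.253), and without that replicate the log2 difference was −0.02 (adjusted p = 0.736). Whether that library's mitochondrial share had a part in this was not tested.

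The ratio of IGF1R to INSR within a library does not depend on library scaling, and it fell 1.58-fold in SOX2-KO. Its log2 value went from −0.33 ± 0.06 to −0.99 ± 0.04, with every SOX2-KO library below every Control library. With 3 libraries a side, no exact two-sided permutation p can be lower than the 0.1 found here, which was also 0.1 after adjustment over the 4 ratios examined.

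IGF2R, the receptor that clears IGF2 and sorts lysosomal enzymes, moved the other way. It was measured at 96.4, 92.0 and 93.4 CPM in Control and at 211, 217 and 194 CPM in SOX2-KO. The groups were far apart, with SOX2-KO replicate 3 the lowest of its group. The rise was 2.21-fold, from 93.9 ± 2.22 to 207 ± 11.9 CPM (log2 difference 1.13 ± 0.05, standard error; adjusted p = 4.00e-07). M6PR, the smaller cation-dependent mannose 6-phosphate receptor, rose as well but only 1.11-fold, from 87.5 ± 1.57 to 97.4 ± 2.82 CPM (adjusted p = 0.0101).

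The receptor substrates changed in opposite directions. IRS1, the docking protein through which both receptor kinases engage PI3-kinase, had 51.1, 49.8 and 51.0 CPM in Control and 102, 104 and 99.6 CPM in SOX2-KO. The libraries of a group were nearly equal, and the groups were separated by about 50 CPM. IRS1 thus rose 2.01-fold (50.6 ± 0.696 to 102 ± 1.96 CPM; log2 difference 0.99 ± 0.04, standard error; adjusted p = 2.99e-07). IRS2, the related substrate known for its role in insulin secretion and hepatic insulin action, was measured at 569.8, 529.8 and 520.4 CPM in Control and at 356, 356 and 343 CPM in SOX2-KO. All SOX2-KO libraries were lower than all Control libraries. Its mean fell 1.54-fold, from 540.0 ± 26.3 to 351 ± 7.69 CPM (log2 difference −0.62 ± 0.04, standard error; adjusted p = 6.67e-06). The calls of IGF1R and IRS2 were lost when limma tested against a minimum fold of 1.5 (adjusted p = 0.277 and 1.00).

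With opposite changes, the ratio of IRS1 to IRS2 rose 3.08-fold. On a scale of CPM per kilobase of the principal transcript (9705 bases for IRS1 and 8138 for IRS2), IRS2 exceeded IRS1 by 13.3, 12.7 and 12.2 times in Control replicates 1, 2 and 3. In SOX2-KO the excess was 4.18, 4.10 and 4.10 times. IRS2 therefore remained the more abundant substrate transcript in every library (difference of the log2 ratio 1.62; exact two-sided permutation p = 0.1, the smallest possible, and 0.1 adjusted over 4 ratios).

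**Figure D2:**
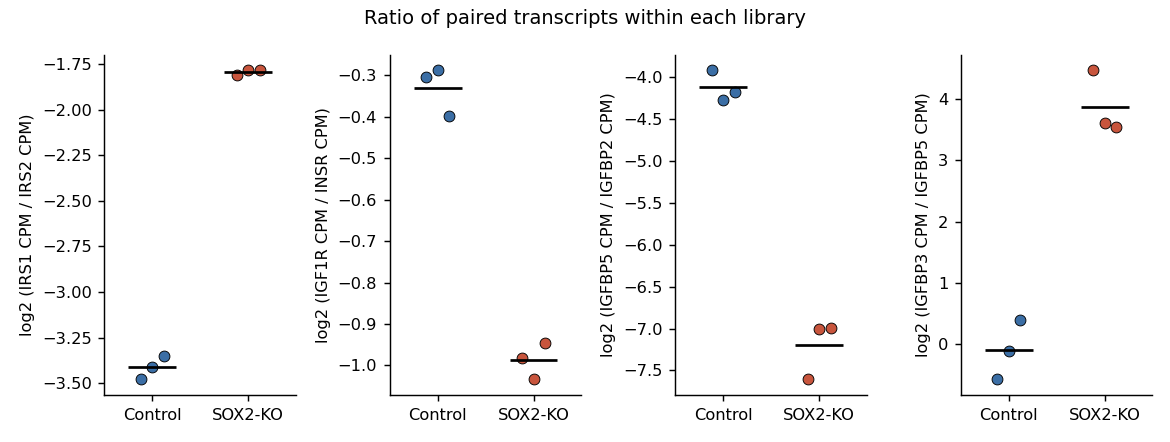
Log2 ratio of CPM within each library (y axes) for 4 pairs of genes; points are the 3 libraries of each group and lines the group means. No pair has overlapping groups: IRS1 to IRS2 and IGFBP3 to IGFBP5 are higher in SOX2-KO, and IGF1R to INSR and IGFBP5 to IGFBP2 lower.

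The binding protein genes showed the widest span of changes. IGFBP2, a binding protein that prefers IGF2 and is abundant in many prostate cancer cells, was measured at 67.1, 63.2 and 61.3 CPM in Control and at 115, 122 and 114 CPM in SOX2-KO. Every SOX2-KO library was above every Control library. The rise was 1.83-fold, from 63.9 ± 2.97 to 117 ± 4.29 CPM (log2 difference 0.86 ± 0.05, standard error; adjusted p = 1.61e-06). IGFBP3, the main carrier of IGFs in serum and a growth inhibitor in many epithelial cells, had 2.98, 3.04 and 4.44 CPM in Control, which correspond to 65, 77 and 92 estimated reads. In SOX2-KO it had 13.2, 11.6 and 10.5 CPM, or 289, 255 and 269 reads. The Control libraries spread more than those of other members, with replicate 3 the highest, but no value reached those of SOX2-KO. IGFBP3 rose 3.36-fold, from 3.49 ± 0.828 to 11.7 ± 1.37 CPM (log2 difference 1.51 ± 0.15, standard error; adjusted p = 3.05e-05).

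IGFBP5, a binding protein that also attaches to extracellular matrix, fell from an already low level. Its values were 4.44, 3.28 and 3.38 CPM in Control, from 97, 83 and 70 estimated reads, and 0.592, 0.952 and 0.894 CPM in SOX2-KO, from 13, 21 and 23 reads. All SOX2-KO values were below the Control values and above the 3-read floor. The mean fell 4.55-fold, from 3.70 ± 0.644 to 0.812 ± 0.193 CPM (log2 difference −1.37 ± 0.15, standard error; adjusted p = 7.14e-05). IGFBP2 and IGFBP5 lie tail to tail on chromosome 2, 7668 bases apart, and moved in opposite directions. The ratio of IGFBP5 to IGFBP2 fell 8.44-fold and that of IGFBP3 to IGFBP5 rose 15.7-fold (exact two-sided permutation p = 0.1 for each, the smallest possible, and 0.1 adjusted over the 4 ratios). Both rest on the 13 to 23 reads of IGFBP5 in SOX2-KO: with a pseudocount of 1 the differences of the log2 ratio shrank from −3.08 to −2.24 and from 3.97 to 2.89.

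IGFBPL1, which encodes a secreted protein related to the IGF binding proteins, changed most of the 9. It stood at 13.5, 13.2 and 14.0 CPM in Control, from 296, 334 and 290 estimated reads. In SOX2-KO only 5, 6 and 9 estimated reads were left, or 0.228, 0.272 and 0.350 CPM. Exact 95% Poisson intervals of these values, for counting error only, ran from 0.0740 to 0.532, from 0.0998 to 0.592 and from 0.160 to 0.664 CPM. The lower bounds of SOX2-KO replicates 1 and 2 lay below the 3-read floor of their libraries (0.137 and 0.136 CPM) and that of replicate 3 above its own (0.117 CPM), while the groups were far apart. From 13.6 ± 0.405 to 0.283 ± 0.0617 CPM it fell 48.0-fold, which left 2.08% of the Control level (log2 difference −3.51 ± 0.11, standard error; adjusted p = 8.51e-08). On the log2(CPM + 1) scale this was the 7th largest fall of all genes tested; with a pseudocount of 0.1 the log2 difference was −5.17.

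**Figure D3:**
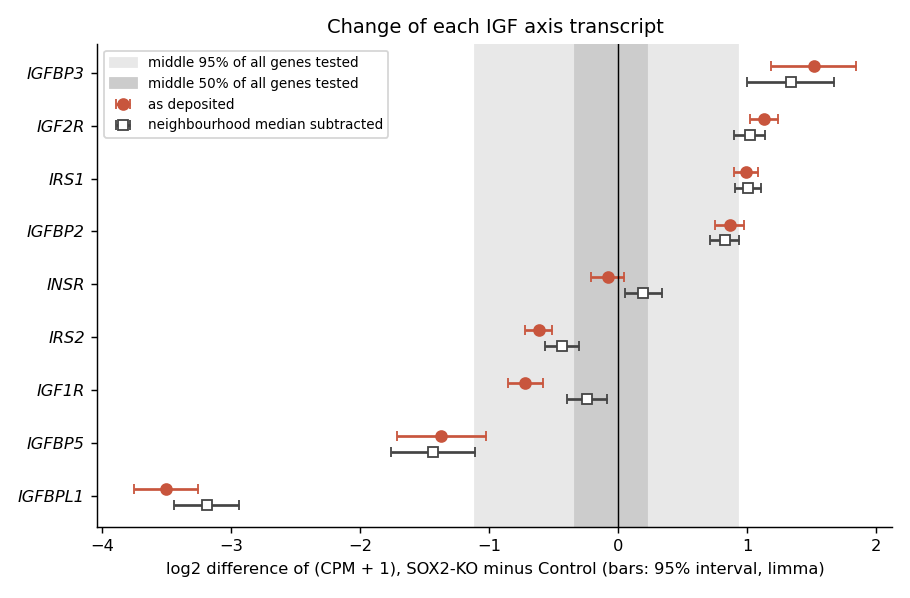
Log2 difference of (CPM + 1), SOX2-KO minus Control (x axis), for each gene (y axis) with its limma 95% interval; filled circles use the deposited values, open squares the values after subtraction of the median change of tested genes within 5 Mb, and grey bands hold the middle 50% and 95% of all genes tested. IGFBPL1, IGFBP5, IRS1, IGF2R and IGFBP3 lie outside the wider band, which runs from −1.11 to 0.93.

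The sequences upstream of the 3 genes with the largest fold changes are shown because IGFBPL1 and IGFBP3, which changed in opposite directions, are both rich in CpG there and IGFBP5 is not. Each is the 250 bases before the start in RefSeq's table (GRCh38.p14), read 5′ to 3′ along the gene's own strand, with CpG dinucleotides in capitals. IGFBPL1 is at chr9:38424455-38424704 on the minus strand, IGFBP3 at chr7:45921273-45921522 on the minus strand and IGFBP5 at chr2:216695550-216695799 on the minus strand. The IGFBP3 stretch lies inside the GENCODE 29 span of the gene, which reaches 45921874, so the RefSeq start differs from that one. The last capital C of IGFBP5 begins a CpG that ends beyond the stretch.
IGFBPL1: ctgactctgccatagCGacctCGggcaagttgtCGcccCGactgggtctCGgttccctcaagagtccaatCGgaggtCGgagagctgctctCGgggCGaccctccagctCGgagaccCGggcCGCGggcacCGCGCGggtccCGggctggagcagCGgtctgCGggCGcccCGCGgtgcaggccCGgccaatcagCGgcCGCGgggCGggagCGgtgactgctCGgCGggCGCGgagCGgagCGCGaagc
IGFBP3: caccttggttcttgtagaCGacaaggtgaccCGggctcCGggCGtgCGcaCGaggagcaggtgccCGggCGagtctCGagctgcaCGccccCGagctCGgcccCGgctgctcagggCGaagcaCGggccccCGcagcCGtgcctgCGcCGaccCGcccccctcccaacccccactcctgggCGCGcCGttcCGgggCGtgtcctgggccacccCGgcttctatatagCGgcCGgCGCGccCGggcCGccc
IGFBP5: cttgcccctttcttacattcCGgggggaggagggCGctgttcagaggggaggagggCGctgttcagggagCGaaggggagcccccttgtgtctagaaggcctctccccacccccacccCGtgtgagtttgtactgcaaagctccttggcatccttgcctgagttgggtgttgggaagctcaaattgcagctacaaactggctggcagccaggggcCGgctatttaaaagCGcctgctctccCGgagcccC
They hold 35, 32 and 8 CpG dinucleotides. In the full windows of 300 bases, which run from 250 bases before the start to 50 after it, the counts were 41, 36 and 9, against a median of 14 over 35116 promoters. IGF1R, IGF2R, INSR, IRS1 and IRS2 had 55, 41, 36, 47 and 50, while the 3 windows listed for IGFBP2 had 8, 28 and 6. Genes with many CpGs thus included ones that rose, that fell and that did not pass the test.

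All 9 genes matched the promoter table, with 11 windows. CATTGT, a core motif of SOX proteins, was searched on both strands and lay in none of them, against 10.8% of all windows of this length. The FOXO motif GTAAACA, also searched on both strands, lay in none of them, against 3.42% of all windows. G and C made up 55.3% to 79.7% of the bases of these windows, against a median of 58.7% over all promoters. The shares over all windows were not matched for this. The absence says only that these letters are not in these windows.

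Levels of different genes were compared per kilobase of the principal transcript. In Control the order was IRS2 (66.4 ± 3.23 CPM per kilobase), IGFBP2 (44.4 ± 2.06), IGFBPL1 (12.4 ± 0.371), INSR (11.7 ± 0.0329), IGF2R (6.69 ± 0.158), IRS1 (5.22 ± 0.0717), IGF1R (3.60 ± 0.146), IGFBP3 (1.54 ± 0.366) and IGFBP5 (0.595 ± 0.104). IGFBPL1 and INSR, neighbours in that order, differed by less than 1 CPM per kilobase. In SOX2-KO IGFBP2 came first (81.4 ± 2.98 CPM per kilobase), ahead of IRS2 (43.2 ± 0.945), and IGFBPL1 went from place 3 to place 8 (0.259 ± 0.0564). INSR (11.1 ± 0.810 CPM per kilobase) and IRS1 (10.5 ± 0.202) then lay within their spread. The length matters: with all annotated exons merged, the Control order was unchanged but IRS2 stayed ahead of IGFBP2 in SOX2-KO (43.2 against 24.6 CPM per kilobase). The near ties with INSR were also gone on that scale. In Control IGFBPL1 stood at 12.4 and INSR at 5.29 CPM per kilobase. In SOX2-KO IRS1, at 10.2 CPM per kilobase, came ahead of INSR, at 4.997. Among the 4 binding protein genes with values, IGFBPL1 made up 21.1% of the summed level per kilobase in Control and 0.299% in SOX2-KO, or 45.7% and 0.945% with merged exons, and IGFBP2 made up 75.3% and 93.6%, or 49.3% and 89.3%.

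Neighbouring genes on the chromosome moved together with some members. Within 5 Mb of IGF1R, near the end of the long arm of chromosome 15, 18 of 24 tested genes were lower and 1 was higher (median log2 difference −0.51), against 32.9% lower and 25.0% higher over all genes. Among them SYNM, a gene of the intermediate filament protein synemin, fell from 39.2 ± 1.42 to 17.8 ± 1.31 CPM, and MEF2A, a transcription factor gene, from 134 ± 3.71 to 87.1 ± 7.94 CPM. With the neighbourhood's median subtracted in each library, IGF1R was lower by less, with a log2 difference of −0.24 (95% interval −0.40 to −0.08; adjusted p = 0.0138).

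INSR lies on chromosome 19 among 228 tested neighbours, of which 122 were lower and 16 higher (median log2 difference −0.27). Relative to them INSR was higher, by 0.20 on the log2 scale (95% interval 0.05 to 0.34; adjusted p = 0.0243), so its sign turned. For IRS2 on chromosome 13, 15 of 35 neighbours were lower and 3 higher, and the log2 difference after subtraction was −0.43 (adjusted p = 1.15e-04). The neighbours of IGFBPL1 on chromosome 9 were also lower, 49 of 80 against 3 higher (median log2 difference −0.32), but none fell as far as IGFBPL1, whose nearest tested neighbour, the aldehyde dehydrogenase gene ALDH1B1, did not pass the test (38.1 ± 0.944 to 40.2 ± 5.78 CPM). As its fall was the 7th largest of all genes tested, a place below all neighbours follows almost wherever it lies. After subtraction IGFBPL1 was at −3.19 (adjusted p = 1.15e-08).

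The 4 genes that rose stood above nearly all of their neighbours. The log2 difference after subtraction was 1.02 for IGF2R on chromosome 6, where 1 of 24 neighbours had a larger value, 1.01 for IRS1, where 0 of 36 had one, 0.82 for IGFBP2, where 1 of 51 had one, and 1.34 for IGFBP3 on chromosome 7, where 0 of 47 had one. IGFBP5, which shares its neighbourhood with IGFBP2, was at −1.43, below all 51 neighbours. Such places follow largely from the size of the changes: over all genes tested the 4 rises ranked from 103 to 487, and the fall of IGFBP5 ranked 217. The median log2 difference of the neighbours of these genes lay between −0.02 and 0.18. For IGFBP3, 20 of 47 neighbours were called higher and 4 lower, and for IGF2R 9 of 24 were higher and 4 lower. Of the 36 neighbours of IRS1, 11 were higher and 9 lower, and of the 51 of IGFBP2, 18 and 14. Over all genes tested 25.0% were called higher and 32.9% lower.

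**Figure D4:**
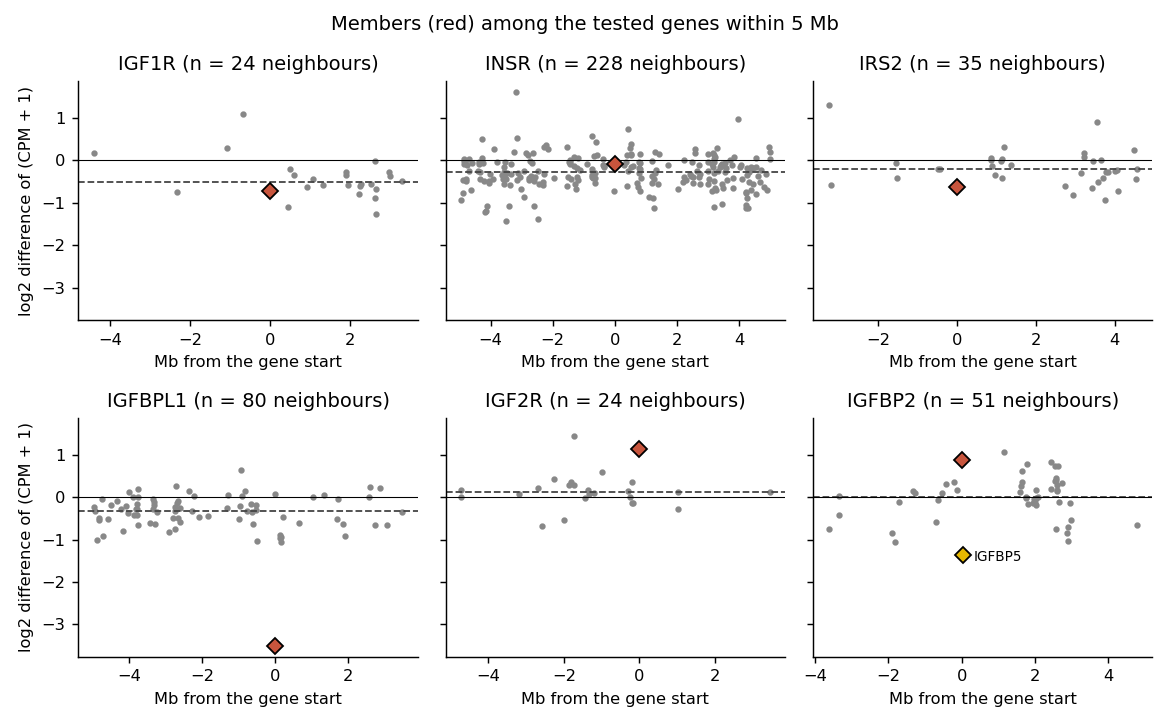
Log2 difference of (CPM + 1), SOX2-KO minus Control (y axes), of tested genes by distance from the start of 6 genes in Mb (x axes); red diamonds mark the gene itself, the yellow diamond IGFBP5, and dashed lines the neighbours' median. IGF1R lies near its neighbours, whose median is −0.51, while IGFBPL1 lies below all 80 of its own, and IGFBP2 and IGFBP5 lie on opposite sides of theirs.

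Coordinates are those of GENCODE 29 on GRCh38, and each member is protein coding. IGFBPL1 (ENSG00000137142) spans chr9:38408994-38424447, IGF1R (ENSG00000140443) chr15:98648539-98964530, IGF2R (ENSG00000197081) chr6:159969099-160113507 and INSR (ENSG00000171105) chr19:7112255-7294034. IRS1 (ENSG00000169047) spans chr2:226731317-226799759, IRS2 (ENSG00000185950) chr13:109752698-109786568, IGFBP2 (ENSG00000115457) chr2:216632828-216664436, IGFBP3 (ENSG00000146674) chr7:45912245-45921874 and IGFBP5 (ENSG00000115461) chr2:216672105-216695525. Antisense genes share 1.41% of the exonic bases of IRS2 and 4.63% of those of IGFBP5, and since the sources used here do not say whether counting used the strand, reads there cannot be assigned to one gene. No member had the same 6 values as another gene.

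The ligands gave little to measure. IGF1 and INS were not analysed here. IGF2, a ligand of both receptor kinases and of IGF2R, had 0.393, 0.762 and 0.202 CPM in Control and 0.751, 0.291 and 1.02 CPM in SOX2-KO, with overlapping groups and a mean under the minimum of 1 CPM for testing. IRS4, a further receptor substrate and also under that minimum, had 0.595, 0.434 and 0.676 CPM in Control and 1.30, 1.13 and 1.40 CPM in SOX2-KO. Of 13 listed ligands and other family members, 3 had values and 1 was tested: IGFLR1, a receptor for an IGF-like protein, did not pass the test (3.41 ± 0.560 and 3.38 ± 0.888 CPM).

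Of 9 tested genes for proteases and regulators of the binding proteins, 5 rose and 2 fell, beside 25.0% and 32.9% over all genes tested. HTRA1, a secreted protease that cleaves IGFBP5, rose 4.76-fold, from 5.36 ± 1.12 to 25.5 ± 1.8 CPM (adjusted p = 2.70e-06). CTSD, the lysosomal protease cathepsin D, which is itself carried by mannose 6-phosphate receptors, rose 3.05-fold, from 57.4 ± 4.68 to 175 ± 6.81 CPM (adjusted p = 2.25e-07). The proprotein convertase gene PCSK6 fell from 21.4 ± 1.13 to 8.29 ± 0.404 CPM (adjusted p = 2.60e-06), and FURIN, whose product cuts the IGF1R precursor, from 79.0 ± 4.88 to 64.2 ± 2.95 CPM (adjusted p = 0.00197). With the neighbourhood subtracted FURIN was no longer called (log2 difference −0.02; adjusted p = 0.739). PCSK6 is one of the neighbours of IGF1R on chromosome 15. STC2, an inhibitor of the IGFBP protease pappalysin, and PAPPA2, a pappalysin, did not pass the test (246 ± 9.86 and 243 ± 17.7 CPM, and 1.16 ± 0.213 and 1.01 ± 0.0717 CPM).

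Of 27 tested genes for lysosomal hydrolases and the machinery that tags and sorts them, 16 were called higher and 7 lower, beside 25.0% and 32.9% over all genes tested. Their median log2 difference was 0.39, against −0.06 over all genes tested, and against a minimum fold of 1.5, 3 were called higher and 2 lower. TPP1, the lysosomal tripeptidyl peptidase, rose 2.47-fold, from 34.9 ± 0.840 to 86.1 ± 1.15 CPM (adjusted p = 1.14e-07), beside CTSD. GNPTAB, a subunit gene of the phosphotransferase that makes the mannose 6-phosphate tag, fell from 354 ± 11.5 to 179 ± 11.6 CPM (adjusted p = 1.21e-06). VPS29, a retromer subunit that returns sorting receptors from endosomes, fell from 84.2 ± 2.94 to 48.1 ± 2.74 CPM (adjusted p = 4.09e-06). The Golgi adaptor genes GGA1 and GGA2 did not pass the test (89.2 ± 3.63 and 84.2 ± 6.56 CPM, and 105 ± 2.99 and 104 ± 3.66 CPM).

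Of 32 tested adaptors and feedback inhibitors of the receptors, 5 rose, 10 fell and 17 were not called, with a median log2 difference of −0.05. Over all genes tested 25.0% were called higher and 32.9% lower, with a median of −0.06, so the share that fell, 31.25%, was near that of all genes. SOS1, an exchange factor that links receptors to RAS, rose from 366 ± 7.99 to 579 ± 9.96 CPM (adjusted p = 1.64e-06), and DOK4, a docking protein gene, from 26.1 ± 1.54 to 40.9 ± 1.59 CPM (adjusted p = 3.33e-05). SHC1, an adaptor that couples receptors to the RAS pathway, fell from 146 ± 4.63 to 82.9 ± 3.57 CPM (adjusted p = 1.69e-06). ARRB1, a beta-arrestin that takes part in IGF1R ubiquitination, fell 3.26-fold, from 35.9 ± 1.91 to 11.0 ± 0.576 CPM (adjusted p = 4.15e-07). RACK1, a scaffold for IGF1R, and PHIP, an IRS1-binding protein gene, did not pass the test (1138 ± 19.2 and 1130.4 ± 55.3 CPM, and 261 ± 12.7 and 258 ± 14.2 CPM).

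In the PI3-kinase, AKT and mTOR core, 9 of 36 tested genes rose and 16 fell, a split that was 11 to 11 with median-ratio scaling, 11 to 12 with quantile normalisation and 10 to 9 with the neighbourhood subtracted. Against a minimum fold of 1.5, 0 were called higher and 2 lower, and over all genes tested 25.0% were called higher and 32.9% lower. Of the regulatory subunits that bind IRS proteins, PIK3R1 rose from 31.4 ± 0.539 to 54.1 ± 2.97 CPM (adjusted p = 5.85e-06), PIK3R2 fell from 86.2 ± 6.05 to 73.4 ± 2.94 CPM (adjusted p = 0.00804) and PIK3R3 fell 2.52-fold, from 151 ± 1.67 to 59.8 ± 2.05 CPM (adjusted p = 7.83e-08). PIK3R2 was no longer called with the neighbourhood subtracted (log2 difference 0.02; adjusted p = 0.765). PIK3C2B, a class II PI3-kinase gene, rose from 29.7 ± 1.60 to 40.5 ± 2.31 CPM (adjusted p = 3.65e-04). TBC1D4, an AKT substrate that controls glucose transporter traffic, fell from 132 ± 1.44 to 66.3 ± 2.41 CPM (adjusted p = 3.55e-07). EIF4EBP1, a translational repressor under mTOR, and MLST8, an mTOR complex subunit, did not pass the test (233 ± 11.3 and 255 ± 18.9 CPM, adjusted p = 0.0966, and 101 ± 4.03 and 92.9 ± 3.93 CPM, adjusted p = 0.0524). EIF4EBP1 was called higher with median-ratio scaling (adjusted p = 0.0216), and MLST8 was called lower with a minimum of 5 CPM (adjusted p = 0.0463).

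FOXO factors are held out of the nucleus by AKT, and IRS2 and INSR are among their textbook targets. Of 21 tested FOXO factors and other targets, 12 rose and 7 fell (median log2 difference 0.16), and 7 rose and 6 fell with the neighbourhood subtracted. Those that rose made up 57.1% and those that fell 33.3%, beside 25.0% and 32.9% over all genes tested. PDK4, whose product inhibits pyruvate dehydrogenase, rose 1.76-fold, from 371 ± 13.5 to 653 ± 15.1 CPM, and CCNG2, the cyclin G2 gene, 1.92-fold, from 15.5 ± 1.23 to 29.9 ± 1.25 CPM. SESN3, a sestrin gene that restrains mTOR, fell 4.24-fold, from 285 ± 14.8 to 67.2 ± 1.42 CPM, and BCL6, a transcriptional repressor gene, 2.78-fold, from 76.1 ± 3.70 to 27.4 ± 1.74 CPM. SESN2 and GADD45A did not pass the test (184 ± 10.1 and 179.6 ± 21.6 CPM, and 52.3 ± 0.465 and 52.3 ± 8.27 CPM).

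**Figure D5:**
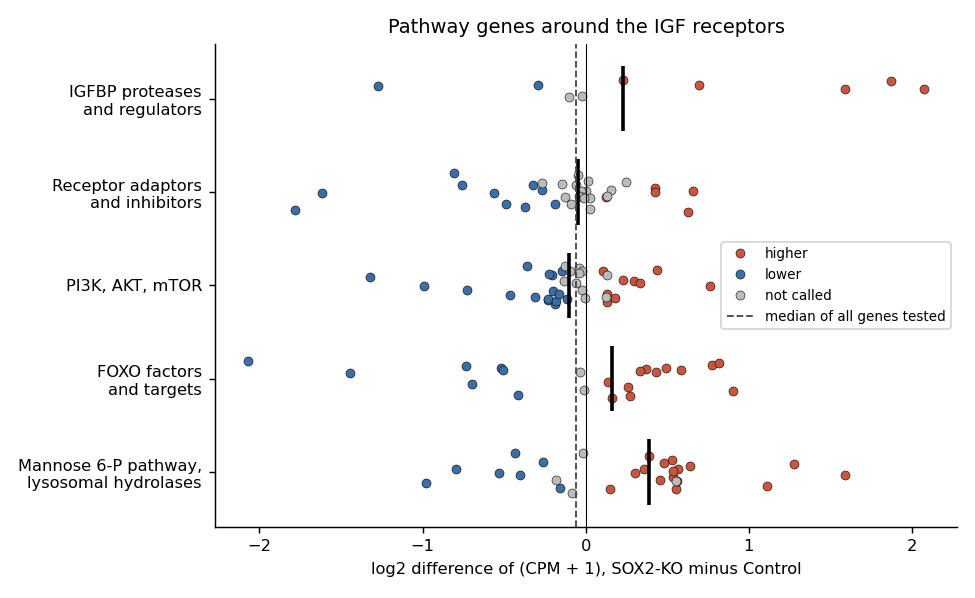
Log2 difference of (CPM + 1), SOX2-KO minus Control (x axis), for the tested genes of 5 lists around the IGF receptors (y axis, points spread vertically for legibility); colours mark genes called higher, called lower or not called, black bars are list medians and the dashed line the median of all genes tested, −0.06. The lysosomal list has the highest median, 0.39, and each of the 5 lists holds genes called in both directions.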

How the data were processed

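RNA-seq of 3 Control and 3 SOX2-KO libraries of CWR-R1 cells was analysed from 1 table in CPM that the authors deposited; each column sums to 1000000 over 16949 genes. Per the submitters' processing notes, STAR, kallisto 0.43.1, Trimmomatic 0.38 and edgeR 3.22.2 were used, on GRCh38.p12 or hg38; which tool made the values is not stated there. How genes were selected for the table is not given in the sources used here. Symbols and positions were looked up in GENCODE 29 (GRCh38), where 16010 of the identifiers were found. Gene lists and members were chosen with earlier results of these data known.

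The value of 1 read was estimated from the spacing of low values; 26.6% to 28.0% of values were whole reads within 0.001 of a read, too few for a test on counts. The values of IGFBP3, IGFBP5 and IGFBPL1 were whole reads. Limma 3.58.1 in R 4.3.3 was run on log2(CPM + 1), with a trended prior and group as the only term. It covered the 15927 genes whose mean over the libraries reached 1 CPM. The fit was tried on simulated counts in which far fewer genes changed than were called here. The genes changed there had means of at least 5 CPM, so low genes such as IGFBP5 were not covered. On estimated reads, replicate pairs all exceeded counting noise (median chi-square per gene 0.848 to 1.84 against 0.455 from counting). Each library counted once in the fit, and this excess does not show that the libraries are independent samples. Levels per kilobase used the principal transcript, and merged exons as a comparison added after the data were seen. Ratios were compared by exact permutation tests in scipy 1.17.1. Besides the members, SOX2 and the ligands, the genes named from each list are up to 2 with the smallest p among those higher, up to 2 among those lower, and up to 2 of the highest level among those not called; M6PR, IRS4, SYNM, MEF2A, ALDH1B1, KLK3, PIK3R2 and VWF were named after their values were seen. Alternatives were pseudocounts of 0.1 and 0.5, no filter, at least 5 CPM, median-ratio and quantile scaling, a replicate block, a minimum fold of 1.5, subtraction of the neighbourhood (genes within 5 Mb, at least 10) and leaving out each library.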

Additional observations from a re-analysis of the deposited data

How the results depend on the processing

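Of 410 values recomputed under the alternatives, 388 kept their direction and their side of the threshold, or stayed within the margin set for counts and ratios. That margin is wide. With median-ratio scaling the PI3-kinase genes called lower went from 16 to 11 and the lysosomal ones from 7 to 5, and both are among the 388. IGF2R, IRS1, IGFBP2, IGFBP3, IGFBP5 and IGFBPL1 kept their calls in every alternative that tested them; IGFBP5 was not tested with at least 5 CPM. Against a minimum fold of 1.5, IGF1R (log2 difference −0.72) and IRS2 (−0.62) were no longer called, and the members called lower went from 4 to 2. In the same test, the genes called higher and lower were 3 and 1 among binding protein proteases and regulators, 0 and 3 among adaptors and inhibitors, 0 and 2 in the PI3-kinase list, 2 and 2 in the FOXO list, 3 and 2 in the lysosomal list, and 393 and 649 over all genes; by construction this test asks for a larger change. With the neighbourhood subtracted INSR turned to 0.20 and was called higher, and 1 protease gene and 9 PI3-kinase genes were called lower and 7 FOXO genes higher; the cause was not tested. Against a minimum fold of 1.5, SOS1, DOK4, PIK3R1, PIK3C2B, PIK3R2, FURIN and M6PR were also no longer called. Without a filter 1 gene of the ligand list, IRS4, was called higher, since more genes were tested. With a pseudocount of 1 the difference of the log2 ratio was −2.24 for IGFBP5 to IGFBP2 (−3.08 without one) and 2.89 for IGFBP3 to IGFBP5 (3.97 without one).

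The replicate numbers showed no clear pairing of the libraries: deviations from group means of same-numbered libraries correlated at −0.04 to 0.04 over genes. Those of differently numbered libraries correlated at −0.07 to 0.08. Correlations this weak do not show how the libraries were prepared. With the replicate block 3775 genes were called higher and 4952 lower, against 3976 and 5234, and the calls of the members stayed the same. Depth limits IGFBPL1 and IGFBP5 in SOX2-KO, which rest on 5 to 23 reads per library, and comparisons between genes rest on an assumed transcript length.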
